A study of Mus musculus with 6 samples.

Results

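Transcripts of 9 genes of melanin formation and of the retinal pigment epithelium (Tyr, Tyrp1, Dct, Oca2, Slc45a2, Mlana, Mitf, Best1 and Ttr) were followed on 6 arrays labelled as retina. Every probe set that the platform annotation assigns to exactly 1 of these genes was taken, which gave 18 probe sets of 45037 that are not controls, for 9 of 18193 named genes. By the labels, the RNA came from retinas dissected away from the pigment epithelium at post-natal day 40. The mutant group consisted of 3 arrays labelled ko/ko for Nxnl2, which encodes a thioredoxin-like protein known as rod-derived cone viability factor 2. The control group consisted of 3 arrays labelled wt/wt. All 6 samples came from the albino BALB/c AJ strain, so mutant and wild type both lack melanin, and all were kept under a cycle of 12 h light and 12 h dark. The labels leave unsaid how many animals a sample holds and whether the replicates are different animals, so p-values rest on differences among these samples that may be technical. The comparison of genotypes asks which retinal transcripts differ without Nxnl2, and these 9 genes were followed as a measure of pigment epithelium and choroid left at dissection.

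Melanin is made inside melanosomes, which form in the pigment epithelium behind the retina and in melanocytes of the choroid. Tyrosinase (Tyr) starts the pathway by oxidising tyrosine, and the related enzymes Tyrp1 and dopachrome tautomerase (Dct) act on later intermediates. BALB/c mice are albino through a missense change in the coding sequence of Tyr, which leaves the enzyme inactive while the cells that express the pathway remain. The transcription factor Mitf drives these genes through short DNA elements with the core letters CATGTG, the longer form of which is known as the M-box. The neural retina holds no melanocytes, so these transcripts can trace epithelium or choroid that stays attached at dissection, although Mitf, Best1 and Ttr are not restricted to pigment cells.

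The proximal promoters of the tyrosinase family, Tyr, Tyrp1 and Dct, are shown as background. The order of the 5 retina arrays described below was shared by Oca2, Mlana and Ttr. A link between promoter letters and that order was not tested. RefSeq promoter sequences (GRCm38.p6) were at hand for 6 of the 9 genes. The 250 bases before each annotated start are printed 5′ to 3′ on the strand of the gene, and capitals mark the longest run of letters that all 3 share, GTCATGTGCT. Tyr lies on the minus strand at chr7:87493513-87493762, Tyrp1 on the plus strand at chr4:80833963-80834212 and Dct on the minus strand at chr14:118052247-118052496.
Tyr: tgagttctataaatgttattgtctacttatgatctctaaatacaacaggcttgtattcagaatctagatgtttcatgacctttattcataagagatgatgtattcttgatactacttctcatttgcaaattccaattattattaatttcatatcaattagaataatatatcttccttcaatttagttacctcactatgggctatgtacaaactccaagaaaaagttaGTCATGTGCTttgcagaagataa
Tyrp1: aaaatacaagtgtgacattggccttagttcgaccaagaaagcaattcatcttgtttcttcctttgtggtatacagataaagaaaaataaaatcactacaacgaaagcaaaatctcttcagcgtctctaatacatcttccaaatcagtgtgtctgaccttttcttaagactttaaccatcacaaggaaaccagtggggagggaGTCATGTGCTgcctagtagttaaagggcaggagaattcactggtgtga
Dct: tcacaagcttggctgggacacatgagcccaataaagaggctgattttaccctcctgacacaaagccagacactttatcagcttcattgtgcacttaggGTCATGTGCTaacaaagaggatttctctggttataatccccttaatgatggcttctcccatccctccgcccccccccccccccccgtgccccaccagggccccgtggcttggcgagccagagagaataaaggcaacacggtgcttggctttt

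Counted back from the annotated start, the shared run of 10 letters began at position -23 in Tyr, -48 in Tyrp1 and -152 in Dct. On either strand it was found in 61 of 32851 promoters of 300 bases (250 before and 50 after the start), which is 0.186%. Its inner 7 letters, TCATGTG, were found in 3.77% of all promoters, and among the 8 promoters of member genes only in those of Tyr, Tyrp1 and Dct. The 6-letter core CATGTG, which lies within both, was found in 14.2% of promoters and additionally in that of Oca2. The run was picked because Tyr, Tyrp1 and Dct share it. Its presence in them, and that of the shorter runs within it, was therefore fixed in advance. The shares of all promoters describe how common the letters are and are no test. A match describes the letters of the window and shows no binding.

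The values are log2 expression values made with RMA, a method that subtracts background, brings the arrays to one distribution and condenses the probes of a set into 1 value. A level can therefore be compared between arrays for 1 probe set but not between probe sets. No detection calls exist, so the highest of 27 Bacillus control probe sets of each array, which were designed for bacterial transcripts and whose maximum was 4.13 to 4.60 by array, was taken as the limit below which a value cannot be told from background. Of the 18 probe sets, 14 lay above this limit on all 5 arrays other than the one labelled knockout replicate 3, as did 63.8% of all probe sets. That array goes against its label. The brighter Nxnl2 probe set was at 9.21 in it, at 3.78 in knockout replicate 1 and at 3.73 in knockout replicate 2, against 11.42 ± 0.04 (SD, n = 3) in wild type. Over all probe sets it correlated with each other array at 0.848 to 0.853, while the 10 pairs among those arrays gave 0.994 to 0.996, and nasal transcripts lay a median of 7.25 log2 units above wild type there while neural retina markers lay at -6.55. It is therefore given apart, and the main account rests on the other 5 arrays. The rod transcripts Sag, Gnat1 and Rcvrn were at 13.5 or above in each of the 5.

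Tyrosinase-family transcripts were present in the albino retina samples and were lowest in knockout replicate 1 and highest in wild-type replicate 2. Fewer pigment epithelium cells and less RNA per cell cannot be told apart in bulk samples such as these. The main Tyr probe set (1417717_a_at) read 4.29 and 5.10 in knockout replicates 1 and 2, against 5.24, 5.99 and 5.23 in wild-type replicates 1 to 3. Both knockout values were below all wild-type values, and knockout replicate 1 sat at the background limit of its array (4.29). The log2 change was -0.79 (SE 0.28, 95% CI -1.44 to -0.14, limma unadjusted p = 0.0233), and it did not pass after adjustment over all probe sets (adjusted p = 1). Of the 2 other Tyr probe sets both were below the background limit on all 6 arrays.

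Tyrp1, the enzyme that stabilises tyrosinase and acts late in the pathway, had 3 probe sets, all above background on the 5 arrays. The main one (1415861_at) read 6.69 and 7.32 in knockout replicates 1 and 2, against 7.45, 8.15 and 7.22 in wild-type replicates 1 to 3. Knockout replicate 2 lay between wild-type replicates 3 and 1, so the groups overlapped. Its mean was 7.01 ± 0.45 (SD, n = 2) in knockout and 7.61 ± 0.48 (SD, n = 3) in wild type, a log2 change of -0.60 (SE 0.28, 95% CI -1.24 to 0.04, adjusted p = 1). The other probe sets stood at -0.55 and -0.36 and ordered the arrays alike at the ends, with knockout replicate 1 lowest and wild-type replicate 2 highest.

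Dct, which converts dopachrome in eumelanin synthesis and is also an early marker of the melanocyte lineage, had 1 probe set (1418028_at). It read 8.09 and 9.24 in knockout replicates 1 and 2, against 8.82, 9.73 and 8.67 in wild-type replicates 1 to 3. Knockout replicate 2 lay above wild-type replicates 1 and 3. The 5 values spanned 1.64 log2 units, a 3.12-fold range, which exceeded the difference of the group means of -0.41 (SE 0.38, 95% CI -1.28 to 0.46, adjusted p = 1).

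**Figure D1:**
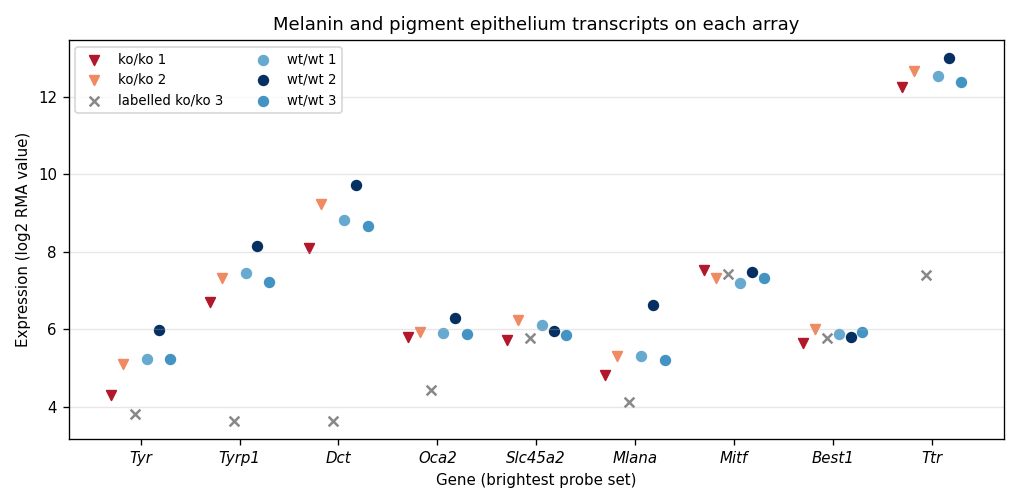
Log2 RMA value of the probe set with the highest mean for each of the 9 genes (x axis) on the 3 arrays labelled ko/ko (triangles, and a cross for the array labelled knockout replicate 3) and the 3 wt/wt arrays (circles). Tyr, Tyrp1, Dct, Oca2, Mlana and Ttr were lowest in knockout replicate 1 and highest in wild-type replicate 2 among the 5 retina arrays, while Mitf and Best1 had narrow ranges of 0.32 and 0.37.

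Among the melanosome proteins, Mlana followed the same order of arrays and the transporters varied less. Mlana, a melanosome protein needed for maturation of the organelle, read 4.82 and 5.29 in knockout replicates 1 and 2, against 5.30, 6.63 and 5.20 in wild-type replicates 1 to 3. Wild-type replicate 2 stood apart above every other array, and the remaining 4 arrays spanned 0.48. Its log2 change was -0.65 (SE 0.39, 95% CI -1.55 to 0.24, adjusted p = 1). Oca2, the melanosomal anion channel that sets luminal pH, read 5.80 and 5.92 in the knockouts, against 5.89, 6.27 and 5.86 in wild type. Without wild-type replicate 2 its range was 0.11, and its change was -0.15 (SE 0.14, 95% CI -0.48 to 0.18, adjusted p = 1). Slc45a2, a melanosomal sugar and proton transporter, did not follow that order. Its brighter probe set read 5.71 and 6.23 in knockout replicates 1 and 2, against 6.09, 5.96 and 5.85 in wild type, so the wild-type values lay inside the span of the knockouts. The change was 0.00 (SE 0.16, 95% CI -0.36 to 0.37, adjusted p = 1), and the dimmer probe set stood at -0.02.

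Mitf, the transcription factor of pigment cells that also has isoforms in other tissues, varied little. Its brighter probe set (1455214_at) read 7.51 and 7.31 in knockout replicates 1 and 2, against 7.20, 7.46 and 7.33 in wild-type replicates 1 to 3. Knockout replicate 1, lowest for the melanin enzymes, was highest of the 5 here, and the groups overlapped. Its change was 0.08 (SE 0.12, 95% CI -0.19 to 0.36, adjusted p = 1). The dimmer probe set lay below the background limit on all 6 arrays.

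Of the pigment epithelium genes outside the melanin pathway, Ttr followed the melanin enzymes and Best1 did not. Ttr encodes transthyretin, the carrier of thyroid hormone and of the retinol-binding protein, and is abundant in pigment epithelium and choroid plexus. Its main probe set (1454608_x_at) read 12.25 and 12.65 in knockout replicates 1 and 2, against 12.52, 12.99 and 12.39 in wild-type replicates 1 to 3. All 4 Ttr probe sets had knockout replicate 1 lowest and wild-type replicate 2 highest, with ranges of 0.74 to 1.06 and changes of -0.32 to -0.18, none of which passed (adjusted p = 1 for each). Their suffixes mark 3 of them as able to bind further transcripts, and they are not independent measures. Best1, a calcium-activated chloride channel of the basal membrane of the pigment epithelium, read 5.64 and 6.01 in the knockouts, against 5.88, 5.79 and 5.91 in wild type, with a change of -0.04 (SE 0.13, 95% CI -0.33 to 0.26, adjusted p = 1).

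**Figure D2:**
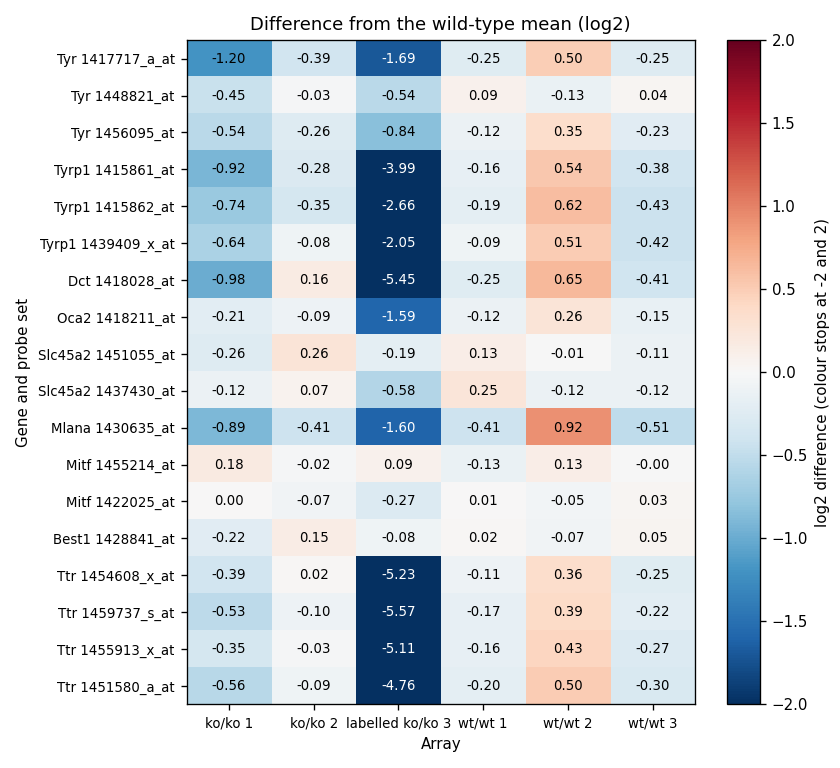
Log2 difference of each of the 18 probe sets (rows) from the mean of the 3 wild-type arrays, on each array (columns), with the value printed in each cell and colour stopping at -2 and 2. Wild-type replicate 2 was above the mean and knockout replicate 1 below it for the Tyrp1, Dct, Oca2, Mlana and Ttr probe sets, and the array labelled knockout replicate 3 reached -5.57.

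Most members put the same arrays at the ends. Only the 14 probe sets above background on all 5 arrays can be ordered, and the shares set beside the order cover those that met the same condition. The ranges are given without this condition, for members and for all probe sets. Knockout replicate 1 was the lowest of the 5 arrays for 13 of the 14, against 22.4%, and wild-type replicate 2 was the highest for 11, against 18.2%. Both held for 11 of the 14, from Tyr, Tyrp1, Dct, Oca2, Mlana and Ttr, against 5.29%. A range of at least 1 log2 unit over the 5 arrays was seen for 7 of 18 probe sets, from Tyr, Tyrp1, Dct, Mlana and Ttr, against 1.13% of all, and the median range was 0.83 against 0.31. Several probe sets share a gene, and the order was noticed in these data, so the counts are a description.

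No member passed the test between genotypes. By limma on the 5 arrays, none of the probe sets of these genes (0 of 18) had an adjusted p under 0.05, where 0.0111% of all did, 0.00222% with knockout higher and 0.00888% with knockout lower. An unadjusted p under 0.05 was seen for 1 of 18 (Tyr, lower in knockout), where 3.05% of all had one and 1.61% had one with knockout lower. The change was below 0 for 16 of 18 probe sets, against 48.6% of all, with a median of -0.28 against 0.00. The groups were separate with knockout lower for 2 of 18 probe sets, against 7.86% of all, and with knockout higher for 0, against 8.4%. Both were of Tyr, and 1 of them was below background on every array. Knockout replicate 1 weighed on these differences. Without it the Dct change was 0.16 and that of the main Ttr probe set 0.02. With knockout replicate 1 and wild-type replicate 2 both left out, Tyr stood at -0.14, Tyrp1 at -0.01, Mlana at 0.05 and Dct at 0.49. This setting was chosen after seeing the data, and in it the lone knockout is assumed to vary like wild type. Leaving out the lowest knockout array, with or without the highest wild-type array, can only raise the changes of these genes. The direction of the shift was therefore fixed in advance, and the shift is no check on the changes.

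**Figure D3:**
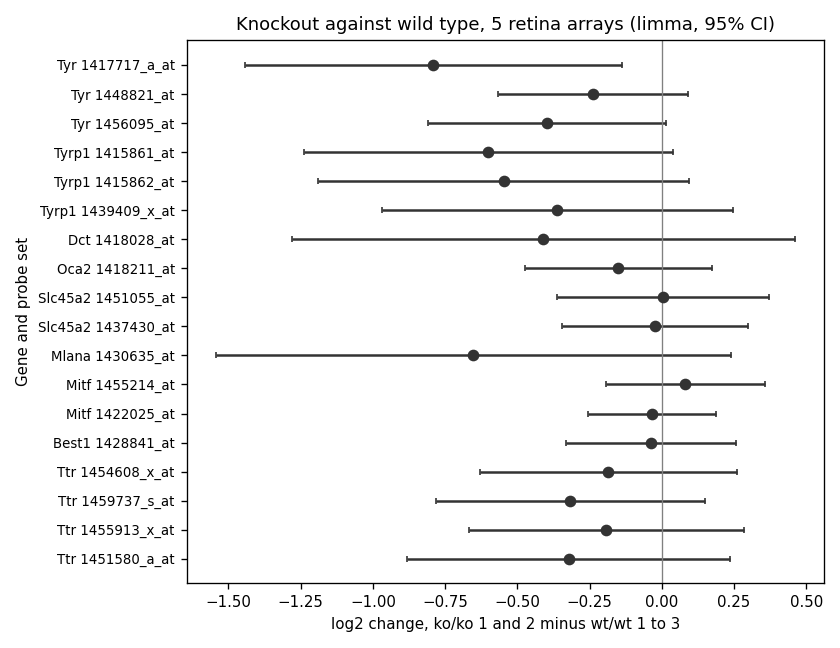
Log2 change of the 18 probe sets between knockout replicates 1 and 2 and the 3 wild-type arrays (x axis), with limma's 95% confidence interval as bars. Apart from the main Tyr probe set (-1.44 to -0.14), every interval included 0, and the widest were those of Mlana and Dct.

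With all 6 arrays, as the design has it, 0 of 18 probe sets passed, where 0% of all did, and 1 of 18 (Tyr, lower in knockout) had an unadjusted p under 0.05, where 1% of all did and 0.666% with knockout lower. The change was below 0 for 17 of 18, against 53.5% of all, and groups did not overlap, with knockout lower, for the same 2 Tyr probe sets, against 4.54% of all, and with knockout higher for 0, against 3.79%. Dct averaged 6.98 ± 2.97 (SD, n = 3) in the arrays labelled knockout and 9.07 ± 0.57 (SD, n = 3) in wild type, a change of -2.09 (SE 1.47, 95% CI -5.76 to 1.58, limma adjusted p = 0.798). The main Ttr probe set averaged 10.77 ± 2.92 (SD, n = 3) in the arrays labelled knockout and 12.63 ± 0.32 (SD, n = 3) in wild type, a change of -1.87 (SE 1.43, adjusted p = 0.798). Without the array labelled knockout replicate 3 these changes were -0.41 and -0.18.

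In the array labelled knockout replicate 3, Dct, Ttr and Tyrp1 were far below the other arrays, Oca2, Tyr and Mlana were lower by less, and Mitf, Best1 and Slc45a2 differed little. Of the 18 probe sets, 7 lay more than 2 log2 units below the mean of the other 5 arrays, where 3.65% of all did, and 0 lay as far above, where 5.4% of all did. The 7 were those of Ttr (all 4), Dct and Tyrp1 (2 of 3). Dct read 3.62 there, below the background limit of 4.13, against 8.91 ± 0.62 (SD, n = 5) in the other arrays. Tyrp1 read 3.62, also below that limit, against 7.37 ± 0.52 (SD, n = 5). Ttr read 7.40 against 12.56 ± 0.28 (SD, n = 5), so it remained above background. Tyr (3.80) and Mlana (4.11) were below the limit, at differences of -1.37 and -1.33, whereas Oca2 read 4.42, against 5.95 ± 0.19 (SD, n = 5) in the others. The other 5 arrays averaged 5.17 for Tyr and 5.45 for Mlana, which left little room above the limit for a larger drop. The sizes of the drops therefore do not rank the genes. Mitf, Best1 and the brighter Slc45a2 probe set differed from the mean of the other arrays by 0.06, -0.07 and -0.19. There is 1 such array, so these differences have no replicate check.

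Further genes of the pigment epithelium also put knockout replicate 1 lowest and wild-type replicate 2 highest in many cases, without passing the test. Of 26 measured genes in a list of other pigment epithelium genes, 20 had wild-type replicate 2 highest, against 15.2% of all genes, 14 had knockout replicate 1 lowest, against 26.1%, and 12 had both, against 5.3%. Unlike the counts for the members, these counts and shares, here and for the lists below, include genes under the background limit. Of all 18193 genes, 2977 were under it on all 6 arrays. The list lay a median of -0.26 from the wild-type mean in knockout replicate 1, -0.11 in knockout replicate 2 and 0.27 in wild-type replicate 2. Rpe65, the isomerase of the visual cycle that is made in the pigment epithelium, read 9.54 and 10.02 in knockout replicates 1 and 2, against 10.15, 10.82 and 9.90 in wild type. In the array labelled knockout replicate 3 it read 4.12, below the limit. None of the 26 passed in either direction on the 5 arrays, 1 (Ermn) had an unadjusted p under 0.05, where 2.59% of all genes did, and the median change was -0.11 against 0.00. The 4 with the smallest p were the cytoskeletal gene Ermn (-0.47, SE 0.16), the metalloproteinase inhibitor gene Timp3 (-0.35, SE 0.16), the matrix gene Efemp1 (0.28, SE 0.14) and the retinol receptor gene Stra6 (-0.33, SE 0.16). The other Ermn probe set stood at -0.75 (SE 0.17), and the other Timp3 probe sets at -0.25, -0.06 and -0.24. In the array labelled knockout replicate 3 this list did not move one way, since 5 members lay over 2 log2 units below the others, where 4.49% of all genes did, and 5 lay as far above, where 7.44% did.

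Of 24 measured genes among other melanosome genes, 3 had that order, namely Pmel, Gpnmb and Trpm1, against 5.3% of all genes. The median of the list stayed within 0.06 of the wild-type mean on each of the 5 arrays, while single genes such as Pmel varied more. Many of the listed genes, such as the Rab and sorting-complex genes, work in lysosome-related organelles of other cells too. Which cells made the Pmel, Gpnmb and Trpm1 transcripts was not tested. Pmel, which forms the fibrils on which melanin is laid down, read 6.71 and 7.34 in knockout replicates 1 and 2, against 7.58, 8.56 and 7.15 in wild type, a change of -0.74 (SE 0.37). Rab27a, the GTPase that tethers melanosomes to their motor, had a change of -0.30 (SE 0.11), while those of its other probe sets ran from -0.11 to 0.17. Rab38, which sends enzymes to melanosomes, was at -0.15 (SE 0.12), while its other probe set was at 0.28 (SE 0.13). The endolysosomal channel gene Tpcn2 was at 0.19 and below background in 4 arrays. None of the 24 passed (adjusted p = 1 for each gene named).

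Genes of choroid plexus and ciliary epithelium were uneven. Of 17 measured, 0 passed, where 1 of 18193 genes did in each direction. By limma on the 5 arrays, 3 (Sostdc1, Col9a2 and Ecrg4) had an unadjusted p under 0.05, where 2.59% of all genes did. The order of the melanin enzymes was seen for 3 of the 17, against 5.3% of all genes. Sostdc1, a secreted BMP and Wnt antagonist, read 5.06 and 5.69 in knockout replicates 1 and 2, against 6.08, 6.64 and 6.21 in wild type. The knockout values were below all wild-type values (-0.94, SE 0.22, adjusted p = 1), and those of its other probe set were too (-0.74, SE 0.11, adjusted p = 0.705). Calml4 stood at -0.57 (SE 0.26), Ecrg4 at -0.27 (SE 0.11) and the cartilage collagen gene Col9a2 at 0.39 (SE 0.12), the last below background in 4 arrays. Among 11 melanocyte lineage genes 0 passed and 1 had that order, against 5.3% of all genes. This was Kit, whose range was 0.24 and whose other probe set was at 0.01. The endothelin receptor gene Ednrb stood at -0.23 (SE 0.11), but its other probe sets were at 0.21 (SE 0.10) and 0.04. The kit ligand gene Kitl stood at 0.13, and its other probe sets above background on most arrays were at 0.02 and 0.16. The transcription factor gene Tfap2a stood at 0.16, and its other probe sets at -0.04 and -0.05. The MITF family gave 0 calls of 4, with Tfe3 at 0.50 (SE 0.11, unadjusted p = 0.0017, adjusted p = 1), Tfeb at -0.18 and Tfec below background on all arrays. In the bestrophin family Best2 was at -0.16 (SE 0.18).

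Other tissues moved with single arrays, and their part in the pigment epithelium values was not tested. Lens markers lay a median of 1.76 above the wild-type mean in wild-type replicate 2, with 13 of 13 highest there, and at -0.76 or lower in the other 4 arrays. The order of the melanin enzymes, with wild-type replicate 2 highest and knockout replicate 1 lowest, was also seen for 9 of the 13 lens markers. It was seen for 5.3% of all genes. The median of the choroid connective tissue and vessel list lay between -0.06 and 0.10 in the 5 arrays. Of its 19 genes, 3 were in the order of the melanin enzymes, against 5.3% of all genes. One of these, Dcn, the decorin gene of fibroblasts, read 5.18 and 6.64 in knockout replicates 1 and 2, against 5.67, 6.83 and 5.29 in wild type, and Dcn was singled out after its values were seen. The smallest p-values of this list were those of the smooth muscle myosin gene Myh11 (-0.31, below background in 5 arrays), the von Willebrand factor gene Vwf (0.36, below background in 4 arrays), the pericyte gene Rgs5 (0.23) and the growth factor receptor gene Pdgfra (0.26), none of which passed. The other Rgs5 probe sets stood at 0.11, 0.38 and 0.30 and did not pass either. The median of the muscle markers stood at 2.12 in knockout replicate 2. That of the neural retina markers lay within 0.03 of the wild-type mean in all 5 arrays, while single markers varied more.

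**Figure D4:**
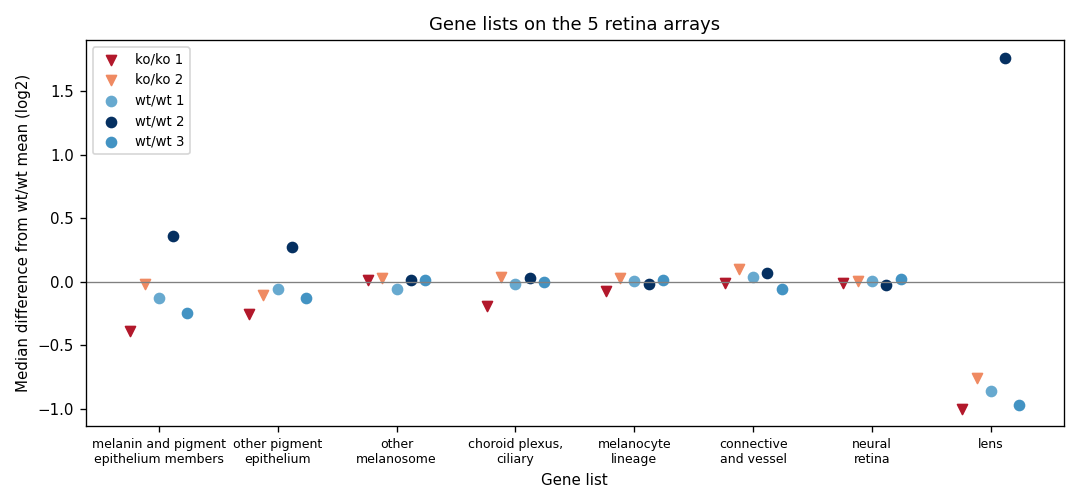
Median log2 difference from the wild-type mean for 8 gene lists (x axis) on knockout replicates 1 and 2 (triangles) and the 3 wild-type arrays (circles). The melanin and pigment epithelium members reached 0.36 in wild-type replicate 2 and -0.39 in knockout replicate 1, whereas neural retina markers stayed within 0.03 of 0. Lens markers reached 1.76 in wild-type replicate 2, and 9 of 13 were also lowest in knockout replicate 1, against 26.1% of all genes.

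The genes nearest in pattern to the tyrosinase family were sought among 150 genes outside the members with a range of at least 1 log2 unit over the 5 arrays. Likeness was the root mean square difference of the 5 values, each gene centred on its own mean, from the mean profile of Tyr, Tyrp1 and Dct. The nearest were Rgs9 (0.10), Col8a2 (0.12), Acta2 (0.13), Rpe65 (0.14), Sema3c (0.16), Lrat (0.16), Cox8b (0.17) and Calml4 (0.17). Lrat is the enzyme that esterifies retinol in the pigment epithelium, Rgs9 is the GTPase-activating protein of photoreceptor transducin, and Acta2 is the actin of smooth muscle. The Rgs9 probe set concerned read 9.08 and 9.85 in knockout replicates 1 and 2, against 9.62, 10.44 and 9.55 in wild type. The other 2 Rgs9 probe sets had ranges of 0.29 and 0.40 and did not share its profile. Among the same 150 genes, the nearest to Ttr were Sfrp1 (0.12), the retinal opsin gene Rgr (0.12), Sema3c (0.13), Lrat (0.15), Pon1 (0.15), Cldn2 (0.16), Gpx3 (0.16) and Slc6a20a (0.17). The main Ttr probe set itself had a range of only 0.74. Genes with a range as small were not candidates, so closer genes may have been left out. Several of the genes nearest to Ttr were among the high transcripts of the array labelled knockout replicate 3, where Gpx3 read 12.18 and Pon1 12.59. Lrat (4.43) and Rgr (8.82), by contrast, were below the other 5 arrays there, as Ttr was. Likeness over the 5 arrays thus carried over to that array for only some of these genes.

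**Figure D5:**
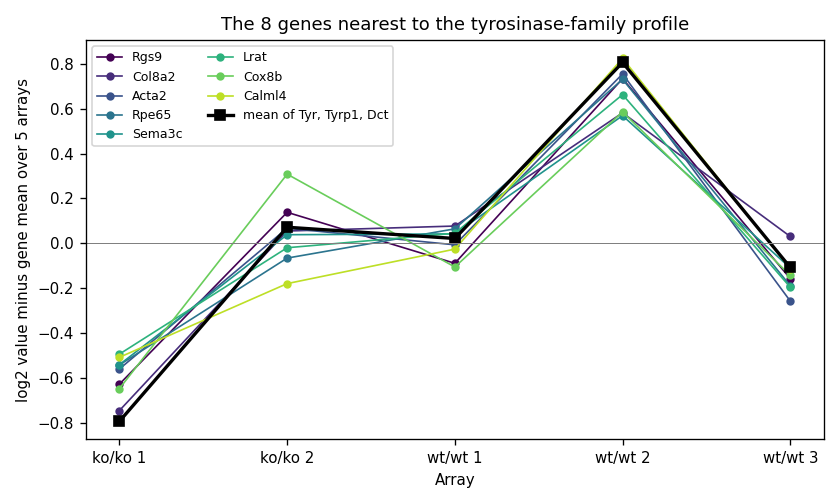
Log2 value minus the gene's own mean over the 5 retina arrays (y axis) for the mean of Tyr, Tyrp1 and Dct (black squares) and the 8 nearest other genes (coloured circles), by array. The tyrosinase-family mean ran from -0.79 in knockout replicate 1 to 0.81 in wild-type replicate 2.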

How the data were processed

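Per the labels' protocols, RNA was hybridised as labelled cRNA to Affymetrix arrays, with a single colour, for 3 samples labelled ko/ko and 3 labelled wt/wt. The authors deposited log2 values, and the submitters' processing notes name RMA. The sources used here do not give its software, version or chip definition. Array medians were 5.77 to 5.80, so a shift in RNA amount per sample is hidden. Precision is limited by how few arrays there are.

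Of 45101 probe sets, 64 controls were left out. The platform annotation names 1 gene for 34945 of the rest, several for 932 (never named) and none for 9160. Of 18193 genes, 18032 matched RefSeq (GRCm38.p6) by Entrez identifier. Where a list is described by gene, its probe set of highest mean (6 arrays) stands for it.

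The genotypes were tested with limma 3.58.1 (lmFit, eBayes; R 4.3.3), two-sided, over 45037 probe sets adjusted after Benjamini-Hochberg and called under 0.05, with 6 arrays and with 5. A single array was called beyond 2 log2 units. The procedure was tested on simulated data. Figures used matplotlib 3.10.9. The members, lists and tests were chosen with earlier results of these data known. The text names every member probe set, from the other lists the up to 4 genes with the smallest p on the 5 arrays, and the 8 nearest profiles. Genes said to show the array order are all named for the melanosome and melanocyte lists only. Rpe65 and Dcn are named as examples from other lists. The neural retina, lens, nasal and muscle lists are given as lists only. Alternatives tried were array weights, a robust fit with a variance trend, a block for the replicate number, quantile normalization once more, median or 75th percentile centring, a filter that drops probe sets under the 40th percentile, values floored at the background limit, and each array left out.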

Additional observations from a re-analysis of the deposited data

How the results depend on the processing

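No member probe set passed under any alternative run, with 6 or 5 arrays, and the smallest adjusted p among them was 0.113 with the replicate number as a block on 5 arrays. The numbers share only a label: deviations of same-numbered arrays correlated at -0.07 and 0.15 on 5 arrays and at -0.10 to -0.03 on 6, and the block changed no call on a member. Counts over all probe sets did move. With 6 arrays 0 passed, against 5 with array weights, 1 with values floored at the background limit, and 0 to 5 with an array left out, the 5 being without the array labelled knockout replicate 3. With 5 arrays 5 passed, against 4 to 11 with a further array left out and 12 without knockout replicate 1 and wild-type replicate 2 together, where 11 was without knockout replicate 1 and 9 without knockout replicate 2. The median range of the members over the 5 arrays was 0.83, and 0.45 without wild-type replicate 2. The 7 member probe sets called low in the array labelled knockout replicate 3, from Dct, Ttr and Tyrp1, were called in the same number under the scalings tried and the floor.

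Signs turned in 32 member values and held in 463, and none of the 32 passed. With an array left out of 5, changes ran from -0.98 to 0.16 for Dct, -0.39 to 0.02 and -0.35 to 0.02 for 2 Ttr probe sets, -0.22 to 0.15 for Best1, -0.020 to 0.18 and -0.073 to 0.0033 for Mitf, -0.26 to 0.26 and -0.12 to 0.10 for Slc45a2, -0.35 to 0.0001 for Best2 and -0.082 to 0.35 for Kitl. Left out of 6, they ran from -0.15 to 0.033 for Best1 and -0.22 to 0.038 for the brighter Slc45a2 probe set. With array weights Best1 stood at 0.058 and that Slc45a2 probe set at 0.095 on 6 arrays, and the Slc45a2 probe set at -0.026 on 5 arrays and at -0.054 there with the replicate block. Floored at the background limit, the dim probe sets of Tyr and Mitf, with Tfec and Myh11, all took the value 0.030, since the floor itself differs between arrays. Without knockout replicate 1 and wild-type replicate 2 together, the values that turned were 0.17 for the dimmest Tyrp1 probe set (-0.64 at the lowest with 1 array left out), 0.49 for Dct, 0.038 for Oca2 (-0.22), 0.0077 for the dimmer Slc45a2 probe set, 0.045 for Mlana (-0.91), 0.11 for Best1, and 0.20, 0.088 (-0.53), 0.18 and 0.17 (-0.56) for Ttr. For Tyrp1, Dct, Oca2, Mlana and Ttr this setting drops the lowest knockout and the highest wild-type array. The upward direction was thus fixed in advance for them, and the cause was not tested.

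Values below the highest Bacillus control have no order.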
